A study of Mus musculus with 9 samples.

Results

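The 9 genes described here encode the machinery by which a cell shows peptides on MHC class I: the heavy chains H2-K1, H2-D1, H2-Q7 and H2-T23, the light chain B2m, the peptide transporter subunits Tap1 and Tap2, the loading factor Tapbp and the transcriptional coactivator Nlrc5. They were chosen by name as parts of this pathway, with earlier results of these data known, and are 9 of the 24060 genes listed for these libraries. The genes were compared between 3 mouse CD8 T cell clones named R7-I, R7-III and R7-II, which recognise the same peptide of the ROP7 protein of Toxoplasma gondii on H-2Ld with different affinities, R7-I binding it most strongly and R7-II most weakly. Each clone came from its own transnuclear mouse line, made from the nucleus of 1 ROP7-specific CD8 T cell, so that the T cell receptor genes are rearranged in their endogenous loci and each clone is represented by a single line. All lines were Rag2 proficient and on the BALB/c background, and no age was given for them. Splenocytes of each line received ROP7 peptide at 10 µM and IL-2 at 10 ng/ml overnight, and CD3+ CD8+ cells binding the H-2Ld-Rop7 tetramer were sorted for sequencing of polyA RNA. There were 3 libraries per clone, labelled as biological replicates, and no unstimulated group was analysed here, so every value below is from peptide-treated cells.

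Proteins of the cytosol are cut by the proteasome, and the peptides are carried into the endoplasmic reticulum by the transporter that TAP1 and TAP2 form together. There a class I heavy chain that has paired with beta-2 microglobulin is held beside the transporter by tapasin, the product of Tapbp, with calreticulin and ERp57, until a suitable peptide binds. Interferon-gamma raises the transcription of most of these genes, and NLRC5 acts at the promoters of heavy chain genes, B2m and Tap1. T cells carry class I on their surface at high density, as do most blood cells.

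The promoters of the heavy chain genes and of B2m are known for a shared order of elements, which is shown because the genes behind them did not move alike. Promoter windows of 300 bases, from 250 before to 50 after the start site, were taken from RefSeq on GRCm38.p6 (the build named mm10) for 7 of the 9 members; Tap2 and Nlrc5 are named only. The stretches below hold 110 bases each and are printed 5′ to 3′ on the strand of the gene. Capitals mark, in either orientation, an interferon-stimulated element core, an NF-kappa-B consensus match, the cyclic AMP response core TGACG and the CCAAT box.
H2-K1 (chr17:34000354-34000463, minus strand): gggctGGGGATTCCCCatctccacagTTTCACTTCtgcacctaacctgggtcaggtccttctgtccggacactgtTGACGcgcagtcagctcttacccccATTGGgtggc
H2-D1 (chr17:35262918-35263027, plus strand): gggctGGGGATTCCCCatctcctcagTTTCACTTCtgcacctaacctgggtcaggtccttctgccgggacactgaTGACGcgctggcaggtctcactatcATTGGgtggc
H2-Q7 (chr17:35439017-35439126, plus strand): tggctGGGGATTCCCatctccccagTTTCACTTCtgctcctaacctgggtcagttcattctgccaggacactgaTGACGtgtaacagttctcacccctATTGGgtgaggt
B2m (chr2:122147542-122147651, plus strand): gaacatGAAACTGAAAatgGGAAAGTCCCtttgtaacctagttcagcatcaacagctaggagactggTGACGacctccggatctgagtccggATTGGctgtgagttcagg
H2-T23 (chr17:36032722-36032831, minus strand): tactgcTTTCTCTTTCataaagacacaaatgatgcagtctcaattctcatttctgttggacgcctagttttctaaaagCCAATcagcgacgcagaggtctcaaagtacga

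H2-K1, H2-D1 and H2-Q7 held the same 4 elements in the same order. B2m held them with the first pair exchanged and with the interferon element in another form, given below. H2-T23 held the interferon element in that other form and the CCAAT box, without a match to the NF-kappa-B consensus or to TGACG in its window. The interferon core was searched as GAANNGAAA, which 7.52% of all 32851 windows held, and in a stricter form with GAAA on both sides of 2 free letters, which 3.44% held. H2-K1, H2-D1 and H2-Q7 matched the first form only, and B2m and H2-T23 the second only. The NF-kappa-B consensus was found in 4.51% of windows, TGACG in 20.8% and CCAAT in 37.4%, each on both strands. Neither interferon form nor TTCNNNGAA, which 8.3% of windows held, was found in the Tap1 or Tapbp window. Tap1 held TGACG and CCAAT, and Tapbp held CCAAT. The start sites of Tap1 and of Psmb9, an immunoproteasome gene, lie 226 bases apart on opposite strands, so that their windows share 275 bases. These matches are descriptions of letters in the C57BL/6J reference, and binding was not measured.

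The genes lie in 3 places of that build. Tapbp (chr17:33919478-33929290), H2-K1 (chr17:33996012-34000619), Tap1 (chr17:34187556-34197225), Tap2 (chr17:34204479-34216321), H2-D1 (chr17:35263094-35267497), H2-Q7 (chr17:35439140-35443773) and H2-T23 (chr17:36029977-36032701) are all within the MHC. B2m (chr2:122147687-122153082) and Nlrc5 (chr8:94434335-94527272) are not.

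Levels are given as TPM, a share of transcripts that corrects for their length, so that genes can be compared within a library. TPM keeps no read number, so the depth of the libraries is unknown and counting intervals cannot be given. Differences are given as log2 fold changes of TPM + 1, tested with limma over the 11330 genes whose highest TPM exceeded 1; all 9 members passed that filter. A gene is called where its Benjamini-Hochberg adjusted p, over all 11330 genes, was below 0.01. Libraries of the same clone correlated across genes at 0.992 to 0.997, and 13738 to 14434 genes per library had a value above 0. More genes were higher than lower in TPM in R7-II. As TPM is a share, a rise in some genes comes with a fall in others. Over all genes the median log2 fold change of R7-II reached 0.17 relative to R7-I and 0.12 relative to R7-III, while R7-III against R7-I gave 0.04. A second scaling by median of ratios, with factors of 0.942 to 1.11 per library, sets these medians near 0 and is given where it changes the call of a member or the counts of a gene list. All libraries expressed the CD8 T cell genes of the sort, with a summed TPM of 7 markers of 1901 to 2810. Cd4 was at 0.95 to 1.00 TPM in R7-II and at 0.22 to 0.53 in the other clones. Markers of other spleen cells were also higher in R7-II and are given below, so the purity of the clones was not shown to be equal.

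One library stood apart in the class I region. Among 7848 genes above 10 TPM in R7-II, 64 (0.815%) set R7-II replicate 2 apart. In these it lay more than 0.5 log2 units from the mean of the other R7-II libraries, which lay within 0.25 of each other. The 64 included 10 of the 19 class I heavy chain rows. The same measure gave 27 genes in R7-II replicate 1 and 18 in replicate 3, with 0 heavy chain rows in either. Results on R7-II are therefore given with and without that library where it matters. BALB/c mice are of the H-2d haplotype and the reference carries H-2b, so that reads of H-2d heavy chain alleles would be assigned to the gene models of another haplotype. No MHC genotype is given for the mice used, and whether it was the same in all libraries was not tested. What the haplotype contributed to the heavy chain values was not tested either.

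On TPM as deposited, most of the 9 members were called higher in R7-II, a majority that did not hold with median-of-ratios scaling. Of the 9 members, 6 were called higher in R7-II when set against R7-I and 6 when set against R7-III, with 0 lower in either comparison. Among all genes tested, 40.6% were called higher and 15.5% lower against R7-I, and 35.6% higher and 18% lower against R7-III. H2-K1, H2-D1, B2m, Tap2 and Tapbp were higher in both comparisons, which share the R7-II libraries; 31.9% of all genes were. Tap1 was called only against R7-I and Nlrc5 only against R7-III, and whether these differences themselves differ is given by the comparison of R7-III with R7-I. The members had a median log2 fold change of 0.35 in the first comparison and 0.38 in the second. After median-of-ratios scaling 4 members, H2-K1, B2m, Tap2 and Tapbp, were called higher in each comparison, beside 25.2% and 25% of all genes called higher and 29.4% and 28.2% called lower. Between R7-III and R7-I 1 member, Tapbp, was called higher, where 6.96% of all genes were called higher and 1.45% lower; with the other scaling 0 members were, beside 4.86% and 3.72% of all genes. The summed TPM of the 9 members was 4693 to 4758 in R7-I, 6204 to 6543 in R7-II and 4694 to 4946 in R7-III.

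**Figure D1:**
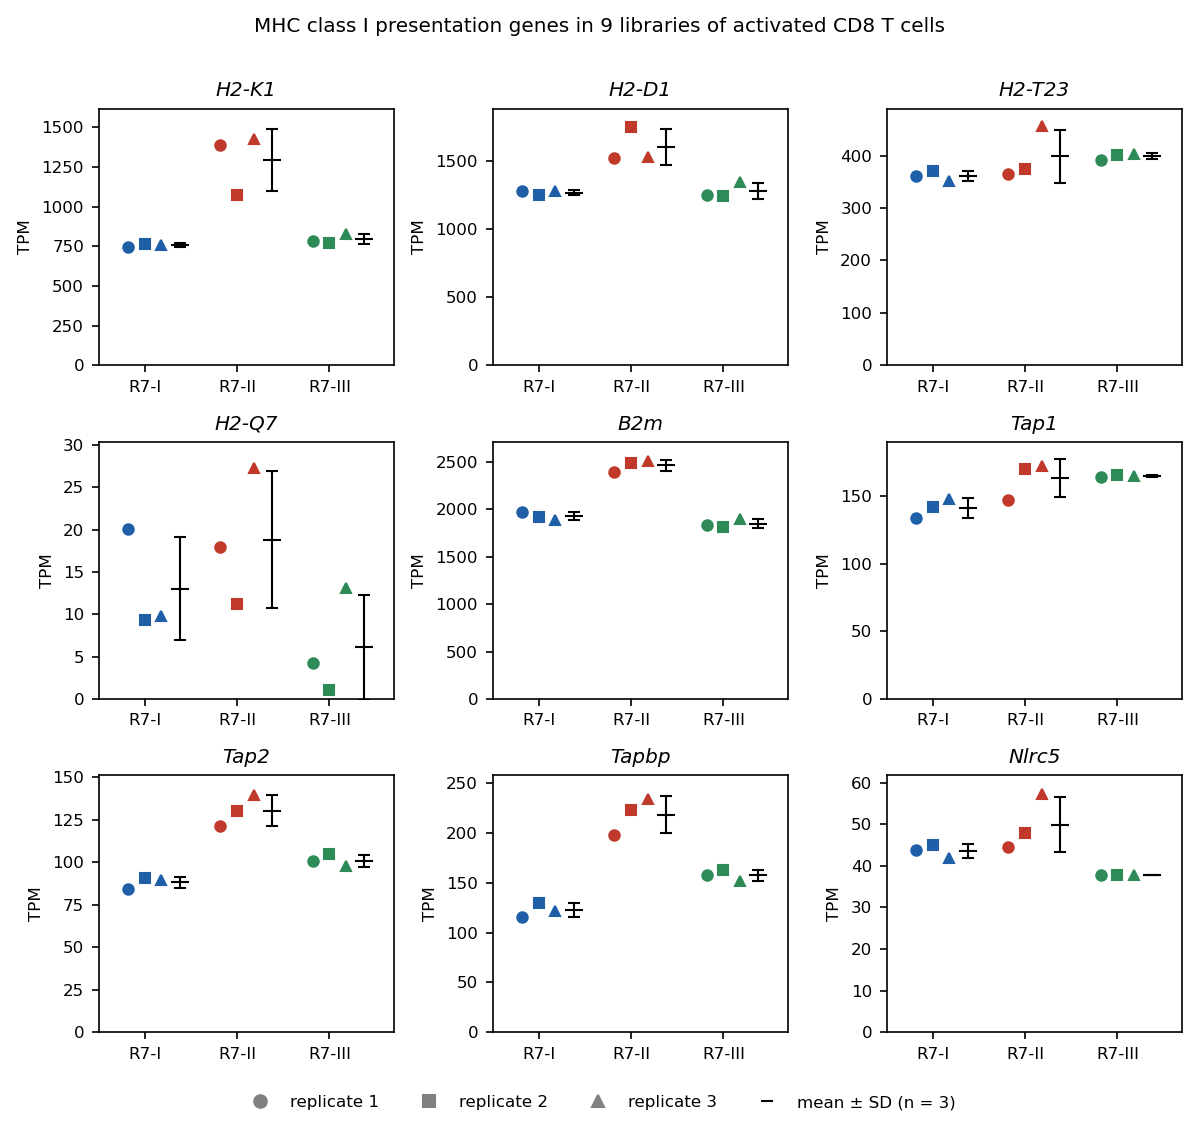
TPM of each of the 9 class I genes (y axis, from 0) in the 3 libraries of each clone (x axis); symbols mark the replicate, and the bar beside them the mean and SD of 3 libraries. The R7-II libraries lie above all other libraries for H2-K1, H2-D1, B2m, Tap2 and Tapbp, and overlap other libraries for H2-T23, H2-Q7, Tap1 and Nlrc5.

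In all 3 R7-II libraries the levels of those 5 genes exceeded all 6 libraries of the other clones, as did 41.7% of all genes tested. Permuting clone labels in an exact two-sided test, 3 R7-II libraries against 6, gave p = 0.0238 for each of the 5, which is the smallest p that 3 against 6 can give. It gave 0.0476 for Nlrc5, 0.119 for H2-Q7, 0.286 for Tap1 and 0.5 for H2-T23. With 3 libraries against 3 the smallest p is 0.1, so pairs of clones are judged by limma. The replicates are labelled biological, but whether they came from separate mice is not stated, and p-values measure the spread between these libraries.

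H2-K1 and H2-D1 encode the classical heavy chains K and D, which present peptides to CD8 T cells. H2-K1 was at 746, 766 and 761 TPM in the R7-I libraries, at 1389, 1072 and 1423 in R7-II, and at 783, 768 and 829 in R7-III. All 3 R7-II libraries were above the others, and R7-II replicate 2 was the lowest of the 3. Relative to R7-I the log2 fold change in R7-II was 0.76 ± 0.09 (SE; limma adjusted p = 2.2e-05) and relative to R7-III it was 0.70 ± 0.09 (adjusted p = 4.42e-05). R7-III and R7-I differed by 0.07 (adjusted p = 0.652). Without R7-II replicate 2 the changes of R7-II were 0.89 and 0.83, and with median-of-ratios scaling they were 0.57 and 0.56, all called.

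H2-D1 was the more abundant of the pair. It was at 1275, 1245 and 1280 TPM in R7-I, at 1522, 1749 and 1524 in R7-II, and at 1246, 1239 and 1347 in R7-III. Again all R7-II libraries were above the others, but here replicate 2 was the highest. R7-II exceeded R7-I by a log2 fold change of 0.33 ± 0.05 (limma adjusted p = 2.08e-04) and R7-III by 0.32 ± 0.05 (adjusted p = 2.83e-04). This call depended on the scaling: with median-of-ratios factors the changes were 0.14 (adjusted p = 0.0684) and 0.19 (adjusted p = 0.0251), so H2-D1 did not pass there.

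The pair changed unequally in 2 of the 3 R7-II libraries. The ratio of H2-K1 to H2-D1 was 0.585, 0.615 and 0.594 in R7-I and 0.628, 0.620 and 0.615 in R7-III. In R7-II it was 0.912 and 0.933 in replicates 1 and 3 and 0.613 in replicate 2, which is inside the range of the other clones. The sum of both genes did not part the R7-II libraries in this way, with 2911, 2821 and 2947 TPM in R7-II against 2012 to 2041 in R7-I and 2007 to 2176 in R7-III.

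H2-T23 encodes Qa-1, a nonclassical class I molecule that presents leader peptides of other class I chains. It was at 362, 371 and 351 TPM in R7-I, at 364, 375 and 457 in R7-II, and at 391.8, 401.7 and 402.3 in R7-III. R7-II overlapped both other clones, and its range was set by replicate 3. No comparison was called, with log2 fold changes of 0.13 against R7-I (limma adjusted p = 0.104; 95% interval -0.02 to 0.29), -0.01 against R7-III (adjusted p = 0.934; -0.16 to 0.14) and 0.14 for R7-III against R7-I (adjusted p = 0.184). The sign against R7-I was the opposite with median-of-ratios scaling, at -0.05.

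H2-Q7 encodes Qa-2, a nonclassical chain that can be anchored to the membrane by lipid. It was the lowest and most variable member, with 20.1, 9.32 and 9.74 TPM in R7-I, 17.9, 11.2 and 27.3 in R7-II, and 4.23, 1.03 and 13.1 in R7-III. All clones overlapped. Its log2 fold changes were 0.50 ± 0.58 for R7-II against R7-I (limma adjusted p = 0.467), 1.82 ± 0.58 against R7-III (adjusted p = 0.0178) and -1.32 ± 0.58 for R7-III against R7-I (adjusted p = 0.146). Of the stretches of 100 bases in the H2-Q7 transcripts of the GENCODE annotation, 11.98% occur in other genes of the table, against 0.957% for H2-K1, 3.59% for H2-D1 and 3.15% for H2-T23, and 0 for the other 5 members. The value of H2-Q7 is therefore uncertain, since the split of such reads between near-identical genes was estimated. H2-Q8, H2-Q9, H2-L and H2-T9 had no transcripts under these names in that annotation. Stretches shared with them were not counted, so these shares are lower bounds.

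The other class I heavy chain rows showed what sets R7-II replicate 2 apart. A list of 23 other class I and class I-like heavy chains had 18 genes past the filter, of which R7-II had 9 called higher and 0 lower than R7-I, and 9 higher and 1 lower than in R7-III, beside the 40.6% and 35.6% of all genes called higher. The 18 include Cd1d1 and Fcgrt, which passed the filter only through R7-II libraries, so any call of them as higher adds no support. Counts of genes called higher in this list can include both and are not read against the share of all genes. The median log2 fold change of the list was 0.32 and 0.23. With median-of-ratios scaling 7 were called higher and 0 lower against R7-I, and 6 higher and 1 lower against R7-III. Without R7-II replicate 2, 8 were called higher and 6 lower against R7-I, and 9 higher and 6 lower against R7-III. The 6 lower in both were H2-K2, H2-Q1, H2-Q2, H2-Q6, H2-Q8 and H2-Q10.

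H2-Q2, a gene of the Q region beside H2-Q7, illustrates the pattern. It was at 118 to 122 TPM in R7-I and at 123 to 140 in R7-III. In R7-II it was at 83.8 and 79.5 in replicates 1 and 3, below all 6 libraries of the other clones, and at 174 in replicate 2, above them all. Leaving out replicate 2, limma gave it a log2 fold change of -0.56 against R7-I (limma adjusted p = 1.33e-05) and -0.67 against R7-III (adjusted p = 4.15e-06), whereas replicate 2 alone gave 0.52 and 0.41 with the spread taken from the other clones. With all libraries the changes were -0.20 and -0.31 and neither was called. The sum of H2-Q1, H2-Q2, H2-Q6, H2-Q8 and H2-Q10 was 352, 723 and 353 TPM in R7-II, 518 to 533 in R7-I and 607 to 717 in R7-III.

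The T region genes H2-T9 and H2-T10 had the opposite arrangement. The products of H2-T10 and H2-T22 are known as ligands of gamma delta T cells, but H2-T10 is annotated as a transcribed pseudogene in the reference. H2-T9 was at 78.6, 33.3 and 81.0 TPM in R7-II, against 16.1 to 24.6 in R7-I and 26.7 to 27.6 in R7-III. H2-T10 was at 17.4, 7.17 and 17.3 TPM in R7-II, against 4.08 to 4.64 in R7-I and 3.03 to 4.18 in R7-III. Replicate 2 was above the other clones for both, and well below its own group. For H2-T10, R7-II exceeded R7-I by 1.40 ± 0.26 on the log2 scale (limma adjusted p = 7.10e-04) and R7-III by 1.57 ± 0.26 (adjusted p = 3.45e-04). H2-T22 was higher as well, at 0.63 and 0.95, with 51.3, 58.8 and 69.0 TPM in R7-II against 27.2 to 40.2 in the other clones. At least 31.5% of its 100-base stretches occur in other genes, counted as for H2-Q7.

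Other class I-like genes were higher in R7-II as well. H2-M3, which presents formylated peptides, was at 29.1, 28.6 and 26.6 TPM in R7-II, 15.2 to 17.6 in R7-I and 19.0 to 22.8 in R7-III, with log2 fold changes of 0.71 and 0.44, both called. Mr1, which presents vitamin B metabolites, was at 2.80 to 3.21 TPM in R7-II and at or below 1.08 elsewhere (1.25 and 1.00, both called). Both had close values in the 3 R7-II libraries. Cd1d1, the lipid-presenting molecule seen by NKT cells, was at 5.69, 2.66 and 5.97 TPM in R7-II and at or below 0.76 elsewhere. Replicate 2 was below the other R7-II libraries, as for H2-T9 and H2-T10. Cd1d1 passed the filter only through R7-II, so its log2 fold changes of 1.70 and 1.76 are given without a call. The row named H2-L, after the chain that presents the ROP7 peptide, was at 8.72 to 16.5 TPM over all libraries and was not called in any comparison. No position for H2-L was found in the reference build, and reads of that chain may have gone to other heavy chain rows. The level of the presenting chain therefore cannot be read from this row. The sum over all 20 rows of H2-K, H2-D, H2-L, H2-Bl, H2-Q and H2-T genes was 3643 ± 17 TPM (SD, n = 3) in R7-I, 4721 ± 257 in R7-II and 3853 ± 192 in R7-III. These rows include H2-K2, H2-Q5, H2-Bl and H2-T10, which the reference annotates as transcribed pseudogenes.

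**Figure D2:**
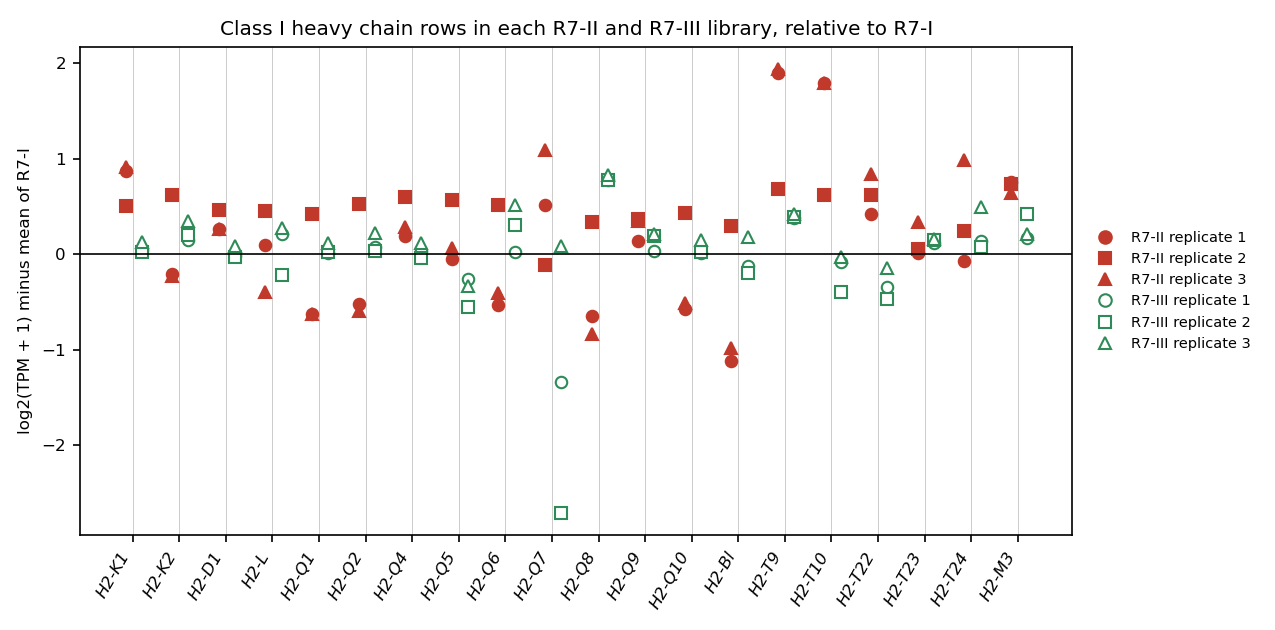
Difference of log2(TPM + 1) from the R7-I mean (y axis) for 20 class I heavy chain rows (x axis, by gene name) in each R7-II library (filled red) and R7-III library (open green); circles, squares and triangles mark replicates 1, 2 and 3. R7-II replicates 1 and 3 lie together below R7-I for H2-K2, H2-Q1, H2-Q2, H2-Q6, H2-Q8, H2-Q10 and H2-Bl and above it for H2-T9 and H2-T10, while R7-II replicate 2 lies away from both.

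B2m encodes the light chain that every class I heavy chain needs to reach the surface. It was the most abundant member, with rank 85 of the 11330 genes by mean TPM. Its levels were 1978, 1920 and 1890 TPM in R7-I, 2399, 2487 and 2509 in R7-II, and 1836, 1813 and 1902 in R7-III. All R7-II libraries were above the others by more than the spread within any clone, and R7-I and R7-III overlapped. The difference on the log2 scale was 0.35 ± 0.03 from R7-I (limma adjusted p = 1.88e-06) and 0.41 ± 0.03 from R7-III (adjusted p = 6.18e-07). R7-III against R7-I gave -0.06 (adjusted p = 0.165).

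R7-II replicate 2 was within its group for B2m, and without it the call stood. With median-of-ratios scaling the changes were 0.17 (limma adjusted p = 0.00437) and 0.28 (adjusted p = 1.64e-04), both called. With that scaling and without R7-II replicate 2, a setting chosen after seeing the data, the call against R7-I was lost for B2m (0.14, adjusted p = 0.0118). The ratio of B2m to the sum of the 20 heavy chain rows was 0.530 ± 0.014 (SD, n = 3) in R7-I, 0.523 ± 0.021 in R7-II and 0.481 ± 0.012 in R7-III. R7-I and R7-II overlapped in this ratio.

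Tap1 and Tap2 encode the subunits of 1 transporter, and their values did not move alike. Tap2 was at 84.3, 91.0 and 89.4 TPM in R7-I, at 121, 130 and 140 in R7-II, and at 101, 105 and 97.6 in R7-III. The R7-II libraries were the highest and the R7-I libraries the lowest, with no overlap between any clones. R7-II lay above R7-I by a log2 fold change of 0.56 ± 0.05 (limma adjusted p = 5.68e-06) and above R7-III by 0.36 ± 0.05 (adjusted p = 1.23e-04), and R7-III against R7-I gave 0.19 ± 0.05 (adjusted p = 0.0268), which was not called. Without R7-II replicate 2 and with median-of-ratios scaling together, the Tap2 call against R7-III was lost (0.21, adjusted p = 0.0219).

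Tap1 was at 134, 142 and 148 TPM in R7-I, at 147, 170 and 172 in R7-II, and at 164, 166 and 165 in R7-III. R7-II overlapped both other clones because its replicate 1 was low, and R7-III lay above R7-I without overlap. With limma the log2 fold change of R7-II came to 0.20 ± 0.06 from R7-I (adjusted p = 0.00868) and -0.02 ± 0.06 from R7-III (adjusted p = 0.781; 95% interval -0.15 to 0.11). R7-III against R7-I gave 0.22 ± 0.06 (adjusted p = 0.0216). The call against R7-I was near the threshold and was lost in 12 of 21 other settings, with a change of sign in 1 more; among the 12 was median-of-ratios scaling, where the change was 0.02 (adjusted p = 0.827).

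The ratio of Tap2 to Tap1 was 0.625 ± 0.019 (SD, n = 3) in R7-I, 0.801 ± 0.032 in R7-II and 0.612 ± 0.021 in R7-III. These ratios within a library do not depend on its scaling. In R7-II they were 0.825, 0.764 and 0.813, each above all 6 ratios of the other clones, the highest of which was 0.640.

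Tapbp encodes tapasin, which bridges the heavy chain and the transporter. It was at 116, 130 and 121 TPM in R7-I, at 198, 223 and 234 in R7-II, and at 157, 163 and 152 in R7-III. The clones did not overlap, in the order R7-I, R7-III, R7-II, which was also that of Tap2. R7-II exceeded R7-I by a log2 fold change of 0.83 ± 0.06 (limma adjusted p = 1.08e-06) and R7-III by 0.47 ± 0.06 (adjusted p = 6.33e-05). Both passed with median-of-ratios scaling, at 0.64 and 0.33.

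Tapbp was the 1 member called between R7-III and R7-I, at 0.36 ± 0.06 (limma adjusted p = 0.00253). R7-III libraries lay above R7-I libraries without overlap for H2-K1, H2-T23, Tap1, Tap2 and Tapbp, as did 29.5% of all genes, and below for Nlrc5, as did 12.4%. The Tapbp call was lost with median-of-ratios scaling (0.31, adjusted p = 0.0148) and without R7-I replicate 1 (adjusted p = 0.0147), R7-I replicate 3 (0.0109), R7-III replicate 1 (0.0115) or R7-III replicate 2 (0.0138). The ratio of Tapbp to Tap1 was 0.866 ± 0.046 (SD, n = 3) in R7-I, 1.34 ± 0.03 in R7-II and 0.954 ± 0.032 in R7-III, and the R7-II values of 1.35, 1.31 and 1.36 were all above the highest of the other clones, 0.983.

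Nlrc5 encodes the coactivator that assembles on class I promoters. It was at 43.7, 45.1 and 41.8 TPM in R7-I, at 44.5, 48.0 and 57.2 in R7-II, and at 37.8 in each R7-III library. R7-II overlapped R7-I and lay above R7-III. On the log2 scale R7-II differed by 0.19 ± 0.08 from R7-I (limma adjusted p = 0.0481) and by 0.38 ± 0.08 from R7-III (adjusted p = 0.00110), and R7-III against R7-I gave -0.20 ± 0.08 (adjusted p = 0.0952). With median-of-ratios scaling the call against R7-III was lost (0.25, adjusted p = 0.0200) and the change against R7-I was 0.00.

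R7-III had the lowest Nlrc5 levels, with R7-I above it, whereas H2-K1, Tap1, Tap2 and Tapbp had their lowest levels in R7-I. Of these differences between R7-III and R7-I that of Tapbp passed the threshold. Across the 9 libraries the gene whose log2(TPM + 1) was most like Nlrc5 was Tmem181c-ps (r = 0.969), before Ctss (0.952), a lysosomal protease of antigen presenting cells, and Orm2 (0.945), an acute phase protein. For B2m they were Wipf2 (0.993), Ube2q1 (0.990) and Slc35b3 (0.990), and for Tap1 Cep68 (0.968), Kctd17 (0.943) and Chchd7 (0.941). These coefficients are descriptions over 9 libraries that fall into 3 clones, so they mostly reflect the clone means. Orm2 had a mean of 0.46 TPM in R7-I, 0.74 in R7-II and 0.31 in R7-III. It passed the filter only through R7-II, so its place beside Nlrc5 adds no support.

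**Figure D3:**
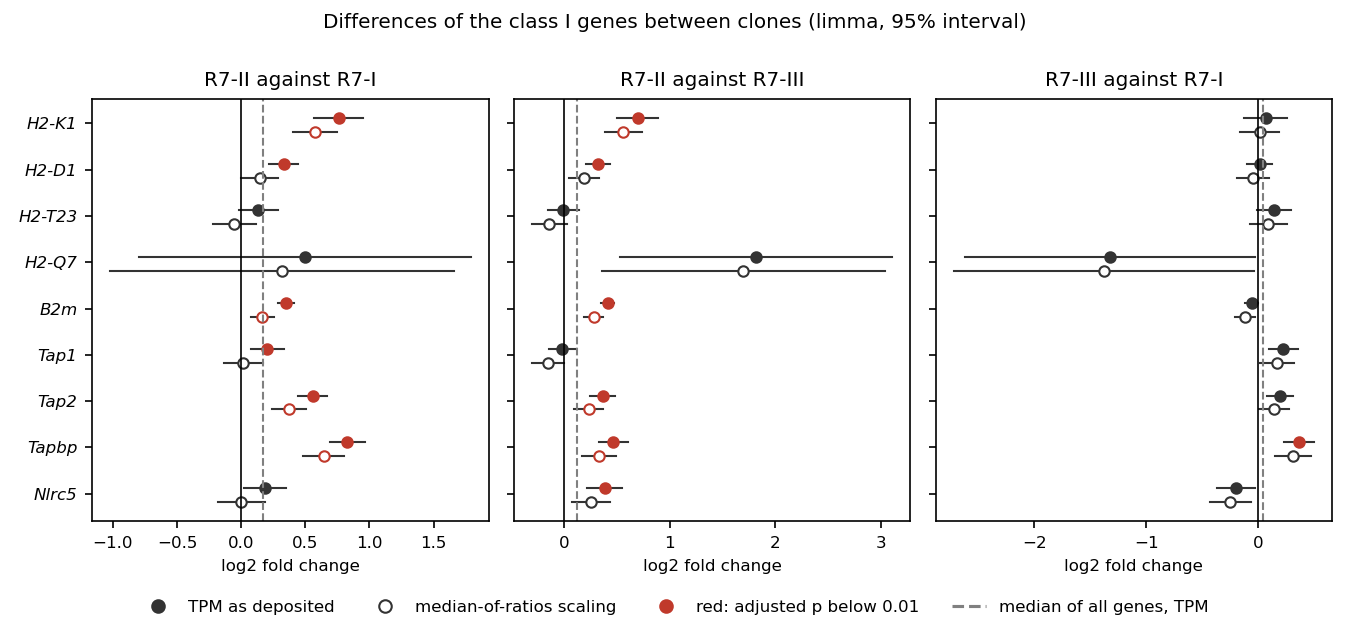
Log2 fold change (x axis) with its 95% interval for each class I gene (y axis) in the 3 comparisons of clones, from limma on TPM as deposited (filled) and after median-of-ratios scaling (open); red marks an adjusted p below 0.01 and the dashed line the median of all genes. H2-K1, B2m, Tap2 and Tapbp are red under both scalings in both comparisons of R7-II, and H2-D1 is red only as deposited.

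Genes that make and trim the peptides were divided in direction. Of 5 genes of the immunoproteasome and its activator, the interferon-induced form of the protease, R7-II had 1 called higher and 1 lower than R7-I. Against R7-III 0 were higher and 2 lower. Of all genes 40.6% and 35.6% were called higher in these comparisons and 15.5% and 18% lower. With median-of-ratios scaling 3 were lower than in R7-III, beside 28.2% of all genes. Psmb10 was at 36.3, 38.2 and 41.6 TPM in R7-II, 21.4 to 25.0 in R7-I and 29.9 to 34.8 in R7-III. R7-II differed by a log2 fold change of 0.72 from R7-I (limma adjusted p = 1.19e-05) and 0.24 from R7-III (adjusted p = 0.0165), and R7-III against R7-I gave 0.48 (adjusted p = 0.00165). Psmb10 had the order of Tap2 and Tapbp.

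Psmb9, which shares its promoter window with Tap1, was at 82.6, 140 and 119 TPM in R7-II, at 120 to 140 in R7-I and at 154 to 167 in R7-III. It was called lower in R7-II than in R7-III and not against R7-I (limma adjusted p = 0.251). R7-II replicate 1 was the lowest of all libraries for Psmb9 and the lowest of its group for Tap1. Psmb8, which lies between Tap1 and Tap2, was at 168 to 226 TPM with all clones overlapping and no call in any comparison.

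Psme2, a subunit of the proteasome activator PA28, was called lower in both comparisons of R7-II, with 492, 652 and 605 TPM in R7-II, 771 to 794 in R7-I and 846 to 908 in R7-III (log2 fold changes -0.43 and -0.61). Its partner Psme1 did not pass in any comparison. The constitutive counterparts Psmb5, Psmb6, Psmb7 and Psme3 were all called lower in both comparisons, by changes of -0.14 to -0.27, among 12.8% of all genes called lower in both.

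Of 10 genes of peptide trimming, 3 were called higher and 3 lower in each comparison, where 40.6% and 35.6% of all genes were called higher and 15.5% and 18% lower. With median-of-ratios scaling 2 were higher and 7 lower than in R7-I, and 3 higher and 6 lower than in R7-III. Higher in both were Lnpep, an aminopeptidase of endosomes (0.49 and 0.52), Npepps (0.49 and 0.39) and Nrd1 (0.30 and 0.32), the last of which did not pass against R7-I with the other scaling (0.11, limma adjusted p = 0.0578). Lower in both were Thop1, an endopeptidase that degrades cytosolic peptides (-0.59 and -0.73), and Lap3, a leucine aminopeptidase (-0.45 and -0.34). Erap1, which trims peptides in the endoplasmic reticulum, was called lower against R7-III alone (-0.26, limma adjusted p = 2.33e-04), with -0.13 against R7-I (adjusted p = 0.0155). The test of R7-III against R7-I gave an adjusted p of 0.0476 for Erap1.

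Most of 9 listed genes of folding and loading in the endoplasmic reticulum had lower values in R7-II, unlike Tapbp. Of these 9, R7-II had 1 called higher and 5 lower than R7-I, and 0 higher and 4 lower than R7-III. Their medians were -0.14 and -0.12, and of all genes 15.5% and 18% were called lower. Calr, calreticulin, was at 1007, 1058 and 984 TPM in R7-II, 1250 to 1281 in R7-I and 1141 to 1214 in R7-III (log2 fold changes -0.32 and -0.20). Hspa5, the chaperone BiP, changed by -0.48 and -0.29, and Pdia4 by -0.38 and -0.36, and these 3 were called in both comparisons. Ganab and Uggt1 went the other way, with 156 to 171 and 41.0 to 45.5 TPM in R7-II and at most 152 and 40.4 elsewhere. Pdia3, ERp57, was called against R7-I (-0.18, limma adjusted p = 0.00701) and not against R7-III (-0.12, adjusted p = 0.0454). Canx, calnexin, was likewise called against R7-I (-0.14, adjusted p = 0.00253) and not against R7-III (-0.10, adjusted p = 0.0140). Tapbpl, the tapasin relative TAPBPR that edits peptides, was called lower against R7-III (-0.36) and not against R7-I (-0.14, adjusted p = 0.0353), and so did not follow Tapbp. With median-of-ratios scaling 7 of the 9 listed genes were called lower in both comparisons, beside 29.4% and 28.2% of all genes lower in each.

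**Figure D4:**
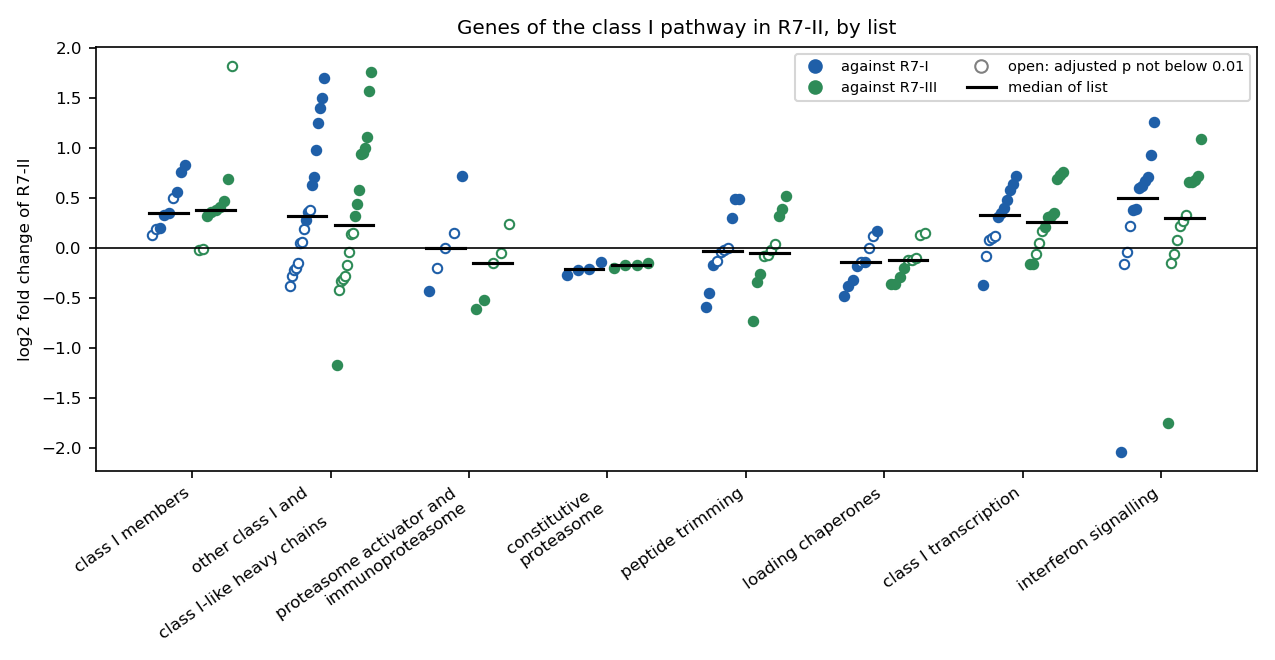
Log2 fold change of R7-II (y axis) against R7-I (blue) and R7-III (green) for the genes of 8 lists of the class I pathway (x axis); filled points passed an adjusted p of 0.01 and the black line is the median of a list. Most points of the proteasome and chaperone lists lie around or below 0, with Psmb10, Ganab and Uggt1 above it in both comparisons. Those of the class I members and of interferon signalling lie mostly above it, with Ifng at -2.04 and -1.76.

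Of 12 genes of class I transcription, R7-II had 7 called higher and 1 lower than R7-I, and 7 higher and 2 lower than R7-III, with the same 7 higher in both, as were 31.9% of all genes. With median-of-ratios scaling 5 were higher and 2 lower in each comparison, and 4 were higher in both. Irf2, an interferon regulatory factor, was at 60.9, 64.6 and 64.3 TPM in R7-II and at 37.7 to 39.8 in the other clones (log2 fold changes 0.72 and 0.69). Rfx5 and Rfxank, subunits of the factor that binds class I and class II promoters together with NLRC5 or CIITA, changed by 0.48 and 0.35 and by 0.64 and 0.74. Ciita, the class II coactivator, is 1 of the 7 but did not exceed 1.28 TPM. It passed the filter only through R7-II libraries, so its call adds no support. Nfkb1 was lower in both comparisons (-0.37 and -0.16). Irf1, which binds interferon elements, overlapped between R7-II and both clones and was not called (0.10 and -0.06).

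Interferon-gamma itself was lower in R7-II. Ifng was at 25.2, 36.9 and 47.5 TPM in R7-II, 133 to 160 in R7-I and 117 to 128 in R7-III, with log2 fold changes of -2.04 ± 0.17 (limma adjusted p = 2.85e-06) and -1.76 ± 0.17 (adjusted p = 8.37e-06). Of 12 genes of interferon signalling, 8 were called higher and 1, Ifng, lower than in R7-I, and 5 higher and 1 lower than in R7-III. The share called higher against R7-III was near that of all genes, 35.6%, and against R7-I all genes gave 40.6%. With median-of-ratios scaling 6 were higher and 2 lower than in R7-I, and 5 higher and 2 lower than in R7-III. The receptor chains Ifngr1 (0.67 and 0.68), Ifngr2 (1.26 and 1.09) and Ifnar1 (0.72 and 0.66) and the transcription factor Stat2 (0.93 and 0.72) passed in both, and with median-of-ratios scaling these 4 still did.

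Markers of other cells of the spleen were also higher in R7-II. All 7 MHC class II genes were called higher in both comparisons (6 against R7-I with median-of-ratios scaling), where 31.9% of all genes were. Their sum was 116 to 188 TPM in R7-II, 33.0 to 51.5 in R7-I and 24.9 to 29.3 in R7-III. Of 9 B cell markers, 8 passed the filter, with sums of 36.5 to 75.3, 8.68 to 15.8 and 5.27 to 7.94 TPM in the same order. Cd22, Blk and Fcrla passed it only through R7-II libraries, so no count of calls is given. Of the 10 myeloid and dendritic markers in the table, 9 passed the filter, with sums of 26.0 to 87.1, 5.12 to 6.24 and 5.73 to 7.86 TPM. Csf1r, Itgam, Cd14, Fcer1g, S100a8 and S100a9 passed it only through R7-II libraries, so their calls are not counted either. The NK cell genes summed to at most 0.17 TPM, and Klra8 was at 0 in every library. The leading genes in R7-II were Cd74 (55.4 to 91.3 TPM), Cd79b (13.7 to 25.4) and Lyz2 (13.8 to 56.7). R7-II replicate 2 had the lowest sum of its group for all 3 marker lists, while its H2-D1 was the highest and its H2-K1, H2-T9, H2-T10 and Cd1d1 the lowest of that group. All 7 CD8 T cell genes were called higher in both comparisons of R7-II too (5 with median-of-ratios scaling), beside the same 31.9% of all genes. They summed to 2772 to 2810 TPM against 1901 to 1942 in R7-I and 2077 to 2130 in R7-III. The part of other cells in the class I values was not tested, and in sorted bulk cells more RNA per cell and more cells of a kind cannot be told apart.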

How the data were processed

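The libraries analysed are 9, from peptide-treated, sorted cells, 3 per clone. RNA had been isolated with Trizol and RNeasy and made into TruSeq mRNA libraries. The authors aligned single-end reads and estimated gene levels with RSEM 1.2.11 on RefSeq genes of mm10, and deposited TPM values per gene symbol. Reads that fit several genes are divided by RSEM's estimate. The alignment program that RSEM called is not stated. Per the submitters' processing notes, DESeq2 1.8.1 was used for the study's own tests on counts, which were left out. The 9 value columns were assigned to libraries by their names.

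Deposited TPM was transformed to log2(TPM + 1) for genes with a maximum TPM above 1 and fitted in 1 model over all 9 libraries with limma 3.58.1 in R 4.3.3 (lmFit, eBayes with trend), calling genes at a Benjamini-Hochberg adjusted p of 0.01. Permutation tests used scipy 1.17.1 in Python 3.11.15. Overlap of libraries was read from the ranges of TPM. The members and all gene lists were chosen with earlier results of these data known. Genes were named from the 9 members, fixed pathway genes, and up to 4 genes per list and direction called in both comparisons of R7-II. The 3 most abundant genes of marker lists and the 3 genes most like B2m, Tap1 and Nlrc5 were added. Further heavy chain rows, H2-Q2, H2-L and Gbp2b were named after their values were seen. Not every gene of this rule is reported here; marker lists are given mostly by their sums. Positions are from RefSeq on GRCm38.p6. Alternatives were other pseudocounts, filters, scalings, moderation, thresholds, fits of only the compared clones, a replicate block, and leaving out each library.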

Additional observations from a re-analysis of the deposited data

How the results depend on the processing

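Depth cannot be read from TPM, so counting error is not covered. The members called numbered 6 in R7-II against R7-I, with 5 to 7 when each library was left out in turn, and 6 against R7-III, with 6 to 7. Both counts were 3 without R7-II replicate 2 under median-of-ratios scaling, a setting chosen after seeing the data: H2-K1, Tap2 and Tapbp against R7-I and H2-K1, B2m and Tapbp against R7-III, with limma adjusted p = 0.0118 for B2m in the first comparison and 0.0219 for Tap2 in the second. For R7-III against R7-I the 1 call became 0 with median-of-ratios scaling, 0 without the trend, 0 with both R7-II replicate 2 left out and that scaling, 3 at a threshold of 0.05, 4 with R7-II replicate 2 alone standing for R7-II, 5 in a fit of only these clones, and 0 to 2 with a library left out. The sign turned for H2-D1 between R7-III and R7-I (-0.0428 with median-of-ratios scaling, -0.0425 also without R7-II replicate 2, and -0.0276 to 0.0325 with a library left out), for H2-Q7 against R7-I (-0.118 with R7-II replicate 2 alone), for H2-T23 against R7-I (-0.0533 with median-of-ratios scaling, -0.0338 also without R7-II replicate 2) and against R7-III (0.0519 with quantile normalization, -0.108 to 0.0541 with a library left out), and for Tap1 against R7-I (-0.0355 without R7-II replicate 2 under median-of-ratios scaling) and against R7-III (0.0209 with quantile normalization, 0.0466 with R7-II replicate 2 alone, -0.0589 to 0.0533 with a library left out); the cause was not tested. Same-numbered libraries of different clones share only a number, since their deviations correlated at -0.04 to 0.09; with that number as a replicate block, 6, 7 and 1 members were called, the added one being H2-Q7 against R7-III (adjusted p = 0.00532 from limma).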
